A study of Mus musculus with 10 samples.

Results

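The 10 genes described here carry glucose into the cell and through glycolysis to lactate: the glucose transporters Slc2a1 and Slc2a4, the hexokinases Hk1 and Hk2, the phosphofructokinases Pfkl and Pfkp, the aldolase Aldoa, the pyruvate kinase Pkm and the lactate dehydrogenases Ldha and Ldhb. They were chosen by name, as the rows of the count tables whose gene identifier belongs to these symbols, and are 10 of the 55414 genes counted. All 10 passed the filter on low counts, as did 17690 genes in all. The data are bulk RNAseq of interscapular brown adipose tissue (iBAT) of male C57BL/6J mice, aged 12 to 14 weeks, on normal chow. All mice carried floxed RetSat on both alleles. The 5 Cre- mice had no Cre and served as controls, and the 5 Cre+ mice carried Ucp1-Cre, in which the Ucp1 promoter drives the recombinase, so that the deletion is directed at cells that express Ucp1, and vessels, nerves, immune cells and any adjoining muscle are not targeted. RetSat, which codes for the enzyme retinol saturase, was measured at 185 ± 42.3 CPM in Cre- mice, and in Cre+ mice at 23.9 ± 8.63 CPM (mean ± SD of 5 mice each; CPM are counts per 1000000 counts of a library, scaled by TMM). Total counts ranged from 91903095 to 132499312 in Cre- and from 96991071 to 110293494 in Cre+ mice. Summed over 14 genes of brown adipocytes, the tissue marker level was 21683 to 27191 CPM in Cre- and 20739 to 26495 CPM in Cre+ mice, with none of the 14 at 0 in any library.

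In brown adipocytes, the insulin-responsive transporter encoded by Slc2a4 moves to the plasma membrane on stimulation by insulin. The transporter encoded by Slc2a1 serves basal uptake in many cell types. Hexokinase traps the sugar as glucose phosphate, phosphofructokinase is the committed and most regulated step, aldolase splits the hexose, pyruvate kinase makes pyruvate, and lactate dehydrogenase interconverts pyruvate and lactate. Brown fat takes up much glucose when it is activated by cold, which is the basis of its detection by labelled glucose analogues, and most enzymes of the pathway exist as several isoforms that are used differently by muscle, liver and fat.

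The lactate dehydrogenase isoforms were, in CPM per kb of exon, the closest in level of any family here. The promoters of this pair and of the leading hexokinase in iBAT, 3 of these genes, are therefore shown. Each is the stretch of 250 bases before a RefSeq start site in build GRCm38.p6, which is older than the GRCm39 build of the counts. No exon of a GENCODE release for that older build lies in it, and the release used for the counts was not checked. Capitals mark ACGTG or GCGTG on either strand (CACGT or CACGC as printed), the core letters bound by hypoxia-inducible factors and, as the palindrome CACGTG, by E-box factors such as the carbohydrate-responsive pair of Mlxipl and Mlx.
Hk2 (chr6:82774455-82774704, minus strand): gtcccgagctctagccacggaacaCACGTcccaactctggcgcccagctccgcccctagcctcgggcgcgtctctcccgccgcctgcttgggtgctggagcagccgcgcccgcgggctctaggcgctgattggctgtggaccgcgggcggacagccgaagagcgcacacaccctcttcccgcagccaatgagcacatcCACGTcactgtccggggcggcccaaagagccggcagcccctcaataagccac
Ldha (chr7:46845554-46845803, plus strand): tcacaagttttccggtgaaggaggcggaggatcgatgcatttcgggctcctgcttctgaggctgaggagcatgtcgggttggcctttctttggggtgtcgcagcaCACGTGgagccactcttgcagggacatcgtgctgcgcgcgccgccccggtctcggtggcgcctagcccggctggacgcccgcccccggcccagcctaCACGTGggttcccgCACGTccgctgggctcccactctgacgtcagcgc
Ldhb (chr6:142507958-142508207, minus strand): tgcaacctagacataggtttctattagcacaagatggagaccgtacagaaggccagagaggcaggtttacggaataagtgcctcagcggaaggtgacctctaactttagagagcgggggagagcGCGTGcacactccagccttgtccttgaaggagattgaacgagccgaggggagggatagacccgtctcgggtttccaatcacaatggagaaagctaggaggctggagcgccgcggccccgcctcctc
In the Hk2 window, ACGTG occurred 2 times and GCGTG 0 times. In the Ldha window shown, ACGTG was counted 5 times, because each palindrome CACGTG reads as ACGTG on both strands, and GCGTG 0 times. The Ldhb window held ACGTG 0 times and GCGTG 1 time. Ldha has another start site in the table (chr7:46846832-46847081 for its window, plus strand, not printed), where ACGTG occurred 0 times and GCGTG 1 time, the same counts as in the Ldhb window. Of 32851 promoter windows of this length in the RefSeq table, 16.6% held ACGTG and 28.2% held GCGTG on either strand, and 38.6% held one or the other. Such a match describes the letters of the window and not a bound site. A window was found for 9 of the 10 genes, and Slc2a4 had none in the table.

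At most steps the transcripts in iBAT came mainly from a single isoform, and the leading isoform was the same in all 10 mice. Per length, as CPM per kb of exon over the 10 mice, Aldoa was the highest with 1687 ± 244 (SD), followed by Ldha with 449 ± 45.8 and Pkm with 391 ± 50.4. The divisor counts every annotated exon base of a gene and not the length of the transcripts present. Ranks and family shares on this scale depend on it. Ldhb had 339 ± 22.2, Slc2a4 156 ± 11.8, Pfkl 127 ± 22.7 and Hk2 93.7 ± 14.8 CPM per kb. The other 3 were lower, with 10.8 ± 1.55 for Pfkp, 2.81 ± 0.65 for Hk1 and 2.12 ± 0.31 CPM per kb for Slc2a1. Aldoa ranked 20th of the 17690 genes tested on this scale and Slc2a1 8158th. Between neighbours in this order, the ranges over the 10 mice did not overlap from Aldoa to Ldha, from Ldhb to Slc2a4, from Hk2 to Pfkp and from Pfkp to Hk1. The other neighbours overlapped, so Ldha, Pkm and Ldhb, then Slc2a4, Pfkl and Hk2, and then Hk1 and Slc2a1 formed groups whose ranges ran into each other. Within single libraries, Slc2a4 exceeded Pfkl in 10 of 10, Ldha exceeded Pkm in 9, Pfkl exceeded Hk2 in 9, Hk1 exceeded Slc2a1 in 9 and Pkm exceeded Ldhb in 8.

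**Figure D1:**
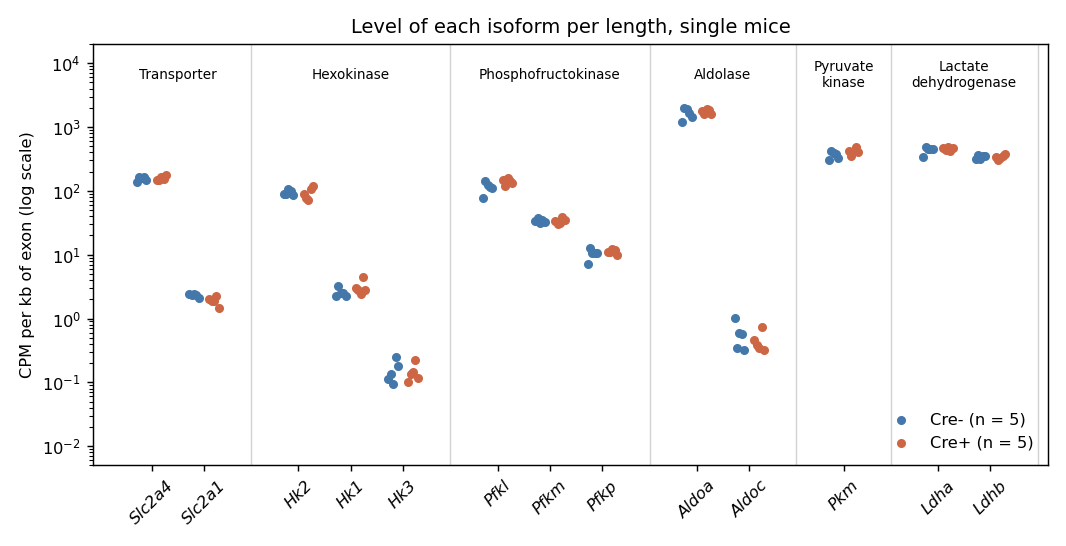
Level of isoforms as CPM per kb of exon on a log axis, grouped by step of the pathway, with 1 point per mouse (5 Cre- and 5 Cre+). Slc2a4 lies far above Slc2a1, Hk2 above Hk1, Pfkl above Pfkm and Pfkp, and Aldoa above Aldoc, while Ldha and Ldhb lie close together, and the genotypes overlap for every gene.

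In CPM per kb, Slc2a4 made up 98.5% ± 0.16 of the summed level of the 2 transporters in Cre- and 98.8% ± 0.24 in Cre+ mice (mean ± SD of 5 mice each, as for the shares that follow). Hk2, the hexokinase of insulin-sensitive tissues, made up 96.5% ± 0.80 of the hexokinases in Cre- and 95.4% ± 1.5 in Cre+ mice. Hk1, the hexokinase of most tissues, gave 2.61% ± 0.46 and 3.21% ± 0.63. Pfkl, the liver-type phosphofructokinase, was 71.5% ± 3.57 of its family in Cre- and 75.5% ± 1.92 in Cre+ mice. Pfkm, the muscle type, gave 22.0% ± 3.83 and 18.4% ± 1.86, and Pfkp, the platelet type, 6.46% ± 0.38 and 6.07% ± 0.50. The order of Pfkm and Pfkp rests on the divisor, which was 3340 annotated exon bases for Pfkm and 13401 for Pfkp. In CPM, Pfkp had means of 138 in Cre- and 150 in Cre+ mice, above Pfkm with 114 and 113. Aldoa held at least 99.9% of the aldolases in every mouse. Ldha, whose subunit predominates in tissues that form lactate, made up 56.2% ± 2.84 of the lactate dehydrogenases in Cre- and 57.6% ± 2.04 in Cre+ mice, and Ldhb, the heart-type subunit, the remaining 43.8% and 42.4%. The genotypes overlapped for each of these shares.

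Between genotypes, none of the 10 genes was called different. With p-values from edgeR's quasi-likelihood fit adjusted over every gene tested (Benjamini-Hochberg), 0 of 10 fell under 0.05, against 29 of 17690 genes (0.164%), of which RetSat was one. DESeq2 likewise called 0 of 10 (2.28% of the genes with an adjusted p) and limma voom with sample quality weights 0 of 10 (0.837% of genes). Before adjustment, at p under 0.05 by edgeR, 2 of 10 passed (12.3% of all genes), Slc2a1 lower (5.95% of all genes) and Pfkl higher (6.4% of all genes). The genotypes did not overlap in CPM for 0 of 10, against 2.67% of all genes. The log2 fold changes, Cre+ minus Cre-, were above 0 for 8 of 10 (50.3% of all genes), with a median of 0.085 beside 0.0018 over all genes tested, and ranged from -0.29 to 0.30. In simulated counts with 200 of 17690 genes changed, the same test found 39% of those with a log2 change of 0.5 and 92% of those with a log2 change of 1. The changed genes were drawn from those with a mean log2 CPM above 0. Counts were drawn gene by gene, with no effect shared within a mouse, so recovery in these mice may differ. No change smaller than 0.5 was simulated. In bulk tissue, fewer cells of a type and less RNA per cell cannot be told apart.

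**Figure D2:**
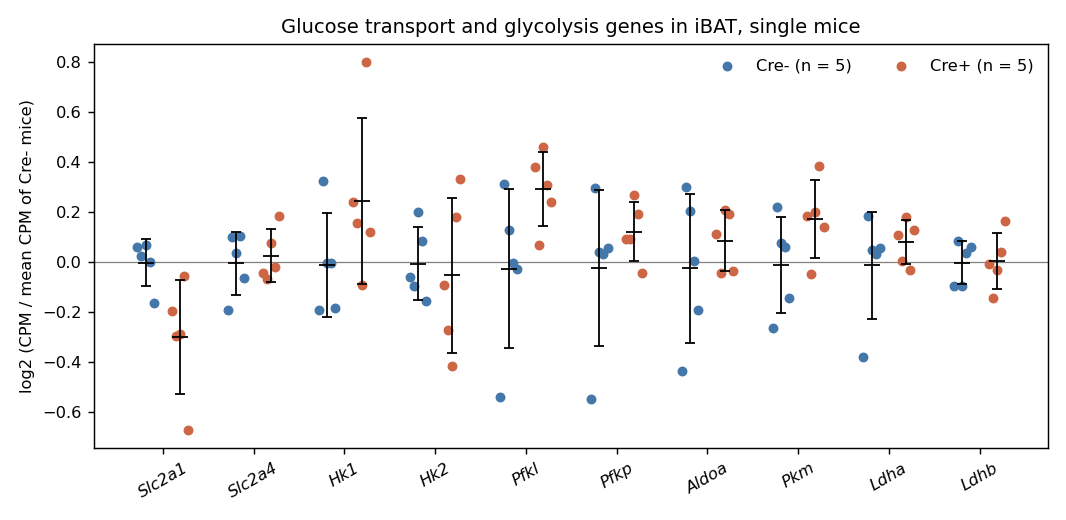
CPM of the 10 genes in each mouse divided by the Cre- mean, on a log2 axis, with 1 point per mouse and bars for the mean and SD of the log2 ratios (n = 5 per genotype). The genotypes overlap for each gene, the 5 Cre+ points of Slc2a1 lie below 4 of the 5 Cre- points, and Cre- replicate 1 is the lowest mouse for Pfkl, Pfkp, Aldoa and Ldha.

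Of the transporters, Slc2a1 (ENSMUSG00000028645.12, GRCm39 chromosome 4, 118965908 to 118995180) had the lower values in Cre+ mice. It stood at 8.51, 8.30, 8.55, 8.18 and 7.30 CPM in Cre- mice 1 to 5 and at 7.14, 6.65, 6.69, 7.85 and 5.14 CPM in Cre+ mice 1 to 5. A single Cre+ mouse, replicate 4, lay above the lowest Cre- mouse, and Cre+ replicate 5 was the lowest of all. The log2 fold change was -0.29 (SE 0.12, 95% interval -0.54 to -0.038), with an unadjusted p of 0.0268 and an adjusted p of 0.340 by edgeR. Without Cre+ replicate 5 it was -0.21 and without Cre+ replicate 4 -0.35, the setting with the smallest adjusted p of any of the 10 genes (0.146 by edgeR). Slc2a4 (ENSMUSG00000018566.15, chromosome 11, 69833365 to 69839014) had 470, 576, 551, 577 and 514 CPM in Cre- and 521, 513, 567, 530 and 611 CPM in Cre+ mice. Its ranges overlapped widely, and the log2 fold change was 0.029 (SE 0.077, 95% interval -0.14 to 0.19, adjusted p = 0.911 by edgeR). The ratio of Slc2a4 to Slc2a1 in CPM per kb ran from 55.7 to 71.2 in Cre- mice and from 68.0 to 120 in Cre+ mice, and these ranges overlap.

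Of the hexokinases, Hk2 (ENSMUSG00000000628.11, chromosome 6, 82702006 to 82751435) had 541, 529, 648, 598 and 506 CPM in Cre- and 530, 468, 424, 639 and 710 CPM in Cre+ mice. The Cre+ mice spread from the lowest to the highest value of all 10, around a log2 fold change of -0.027 (SE 0.13, 95% interval -0.31 to 0.26, adjusted p = 0.958 by edgeR). The 3 Cre+ libraries whose file identifiers carry an added letter, replicates 1, 4 and 5, were the 3 highest of the Cre+ mice for Hk2. Without them its log2 fold change was -0.35 (adjusted p = 0.291 by edgeR). What the letter stands for is not given in the labels, and its part in this value was not tested. Hk1 (ENSMUSG00000037012.19, chromosome 10, 62104634 to 62215687) had 19.03, 27.1, 21.6, 21.6 and 19.1 CPM in Cre- and 25.6, 24.2, 20.4, 37.7 and 23.6 CPM in Cre+ mice. The highest mouse of either genotype was the one richest in muscle transcripts, Cre- replicate 2 and Cre+ replicate 4. For Hk1 the log2 fold change was 0.28 (SE 0.15, 95% interval -0.059 to 0.61, adjusted p = 0.495 by edgeR), 0.20 without both of these mice, 0.11 without Cre+ replicate 4 alone and 0.032 without the 3 lettered libraries.

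At the committed step, Pfkl (ENSMUSG00000020277.11, chromosome 10, 77822781 to 77845917) had 523, 944, 831, 760 and 746 CPM in Cre- and 989, 798, 1046, 941 and 900 CPM in Cre+ mice. Cre- replicate 1 was the lowest mouse, and 3 Cre+ mice lay within the Cre- range. The log2 fold change was 0.30 (SE 0.13, 95% interval 0.014 to 0.58), with an unadjusted p of 0.0414 and an adjusted p of 0.385 by edgeR. It was 0.19 without Cre- replicate 1 and 0.39 without Cre- replicate 2, so the first of these moved it by over 1.5 times. Pfkp (ENSMUSG00000021196.15, chromosome 13, 6629804 to 6698813) had 94.5, 169, 142, 141 and 143 CPM in Cre- and 147, 147, 166, 157 and 134 CPM in Cre+ mice. Cre- replicate 1 was again the lowest, and the Cre+ mice lay within the range of the Cre- mice. For Pfkp the log2 fold change was 0.12 (SE 0.12, 95% interval -0.14 to 0.39, adjusted p = 0.724 by edgeR) and 0.014 without Cre- replicate 1, and 0.21 without Cre- replicate 2. Pfkp shares 748 exon bases with Pitrm1 on the opposite strand, and because the counts did not use strand, its level is less certain than that of Pfkl, which shares none. Pfkm, the muscle-type isoform, had 106 to 127 CPM in Cre- and 101 to 131 CPM in Cre+ mice, with a log2 fold change of -0.012 (with SE 0.080 and adjusted p = 0.970 by edgeR). The ratio of Pfkl to Pfkm in CPM per kb ran from 2.29 to 3.92 in Cre- mice and from 3.58 to 4.99 in Cre+ mice, with overlap.

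Further down, Aldoa (ENSMUSG00000030695.17, chromosome 7, 126394406 to 126399923) had 3520, 5857, 5479, 4766 and 4167 CPM in Cre- and 5136, 4616, 5489, 5432 and 4638 CPM in Cre+ mice. The Cre+ mice lay within the range of the Cre- mice, and the log2 fold change was 0.090 (SE 0.12, 95% interval -0.18 to 0.36, adjusted p = 0.809 by edgeR). A further row of the tables, ENSMUSG00000114515.3, maps to the same symbol, reached at most 0.796 CPM and was not used. Pkm (ENSMUSG00000032294.18, chromosome 9, 59563651 to 59586658) had 1527, 2133, 1934, 1912 and 1660 CPM in Cre- and 2080, 1773, 2108, 2391 and 2019 CPM in Cre+ mice. Its highest value was that of Cre+ replicate 4 and its lowest that of Cre- replicate 1, with a log2 fold change of 0.18 (SE 0.10, 95% interval -0.039 to 0.40, adjusted p = 0.499 by edgeR). The gene counts do not separate the alternative splice forms of Pkm, the muscle-type form and the form of proliferating and many adult tissues, and 767 of its exon bases are shared with Gm49759.

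At the last step, Ldha (ENSMUSG00000063229.16, chromosome 7, 46490899 to 46505051) had 1110, 1638, 1491, 1478 and 1499 CPM in Cre- and 1556, 1448, 1633, 1414 and 1579 CPM in Cre+ mice. All Cre+ mice lay within the Cre- range, and the log2 fold change was 0.080 (SE 0.095, 95% interval -0.12 to 0.29, adjusted p = 0.770 by edgeR). Ldhb (ENSMUSG00000030246.13, chromosome 6, 142435975 to 142453683) had 496, 563, 496, 543 and 553 CPM in Cre- and 527, 480, 518, 545 and 594 CPM in Cre+ mice. It was the steadiest of the 10 genes, with an SD of 0.094 in log2 CPM over the 10 mice and a log2 fold change of 0.0066 (SE 0.072, 95% interval -0.15 to 0.16, adjusted p = 0.982 by edgeR). The ratio of Ldha to Ldhb in CPM per kb ran from 1.06 to 1.43 in Cre- mice and from 1.23 to 1.5 in Cre+ mice, again with overlap.

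**Figure D3:**
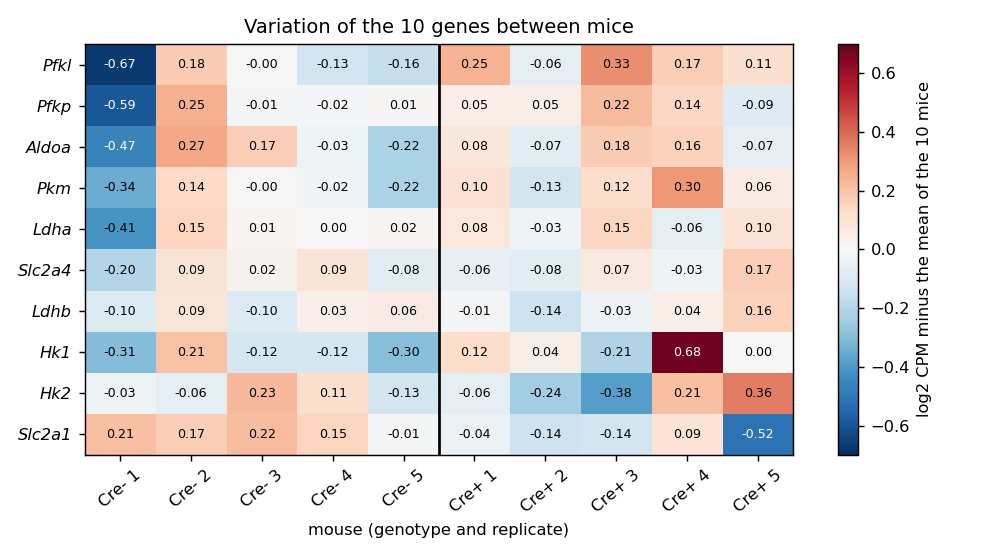
Log2 CPM of each of the 10 genes minus its mean over the 10 mice (colour and printed value), with mice in columns (Cre- to the left of the line, Cre+ to the right). Cre- replicate 1 is low for most genes, Hk1 is highest in Cre+ replicate 4, and Slc2a1 is lowest in Cre+ replicate 5.

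Among the mice, Cre- replicate 1 had the lowest value of all 10 libraries for 7 of the 10 genes, Slc2a4, Hk1, Pfkl, Pfkp, Aldoa, Pkm and Ldha. Over all genes tested, the lowest value fell in this library for 11.9%, and it did so for 6 of the 14 other glycolytic enzymes tested. The 10 genes together took 0.818% of the counts in this mouse and 0.954% to 1.25% in the other 9. Its brown adipocyte markers summed to 23562 CPM, within the range of the other mice, and its total count of 132499312 was the highest of the 10 libraries. It also had the largest part of its counts in the protein genes of mtDNA, 20.5% against 17.0% to 19.7% in the other Cre- and 15.1% to 17.1% in the Cre+ mice, and the role of this in the low values was not tested. Without Cre- replicate 1, the median log2 fold change of the 10 genes was -0.0012, with 4 of 10 above 0. Aldoa then had a log2 fold change of -0.0017 and Ldha of -0.00081.

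Over the 10 mice, the SD of log2 CPM was highest for Hk1 (0.29), Pfkl (0.29), Pfkp (0.23) and Hk2 (0.23), and lowest for Slc2a4 (0.11) and Ldhb (0.094). Likeness between genes was measured as the root mean square difference of log2 CPM, each gene centred on its own mean over the 10 mice, as a description with no test. Among the 10 genes, this difference was smallest for Slc2a4 and Ldhb (0.083), then Slc2a4 and Ldha (0.099), Aldoa and Pkm (0.10), and Pfkp and Aldoa (0.11). The measure is not scaled by SD, so genes of low SD, such as Slc2a4 and Ldhb, come out close whether or not they move together. Slc2a1 was the least like the others, at 0.26 or more from each. Over the tested genes with a symbol, leaving out predicted and clone-named genes, the genes closest to Pfkl were Fbxl8 (0.096), Gpi1 (0.10), which codes for the isomerase of the step just before phosphofructokinase, and Hist1h2bc (0.11). Those closest to Pfkp were Mtor (0.092), a growth-regulating kinase, G6pdx (0.094), the entry enzyme of the pentose phosphate pathway, and Pdss2 (0.099). For both Pfkl and Pfkp, the value farthest from the mean was that of Cre- replicate 1 (-0.67 and -0.59). Likeness to these 2 genes therefore rests mostly on a low value in that mouse. Hk2 was closest to Arhgef17 (0.12), Cxxc5 (0.12) and Ctbp2 (0.13), and Hk1 to the kinase gene Pim1 (0.13), Ahi1 (0.13) and Mest (0.14).

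The rest of the pathway was described from a list of 44 further genes, of which 39 passed the filter on low counts. Of these, edgeR, DESeq2 and limma voom each called 0, against 0.164%, 2.28% and 0.837% of all genes. Before adjustment, at p under 0.05 by edgeR, 1 of 39 was lower (5.95% of all genes) and 1 higher (6.4% of all genes). The median log2 fold change of the 39 genes was 0.019. It was 0.064 for the 14 other glycolytic enzymes, 0.13 for the 8 other transporters and -0.0036 for the 17 lactate carriers and regulators. The lower one was Pfkfb3, which makes the fructose bisphosphate that activates phosphofructokinase. It had 1331, 1084, 1429, 1446 and 1100 CPM in Cre- and 930, 979, 539, 1223 and 692 CPM in Cre+ mice. Of the Cre+ mice, 4 lay below all Cre- mice and replicate 4 lay among them. The log2 fold change was -0.55 (SE 0.20, 95% interval -0.98 to -0.12), with an unadjusted p of 0.0167 and an adjusted p of 0.289 by edgeR. DESeq2 gave an adjusted p of 0.0989 and limma voom 0.0817, and without Cre+ replicate 4 edgeR gave -0.70 and 0.0711, the lowest adjusted p of any of the other pathway genes named here. The log2 fold change was 0.21 (SE 0.11) for the sister gene Pfkfb2 and 0.19 (SE 0.13) for Pfkfb4, and Tigar, whose product degrades the same activator, had 0.14 (SE 0.10), with adjusted p-values by edgeR of 0.474, 0.584 and 0.603.

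The higher one was Slc2a8, an intracellular hexose transporter, with at most 22.5 CPM in Cre- and 21.6 to 27.3 CPM in Cre+ mice and a log2 fold change of 0.20 (with SE 0.077 and adjusted p = 0.325 by edgeR). Slc2a10 had 0.47 (SE 0.27), Slc2a9, a urate transporter, 0.21 (SE 0.16) and Slc2a3, the neuronal glucose transporter, -0.18 (SE 0.18) at levels below 4 CPM in every mouse, with adjusted p-values by edgeR of 0.511, 0.629 and 0.730. Slc2a10 had 0.13 without the 3 lettered Cre+ libraries, and Slc2a9 had 0.090 without Cre+ replicate 3. Slc2a3 had -0.091 without Cre- replicate 1, -0.095 without Cre+ replicate 1, -0.10 without Cre+ replicate 4 and -0.30 without Cre+ replicate 3. The isomerase Gpi1 had 719 to 1224 CPM in Cre- and 990 to 1320 CPM in Cre+ mice, with a log2 fold change of 0.23 (with SE 0.13 and adjusted p = 0.513 by edgeR), Eno1, the main enolase, 0.15 (SE 0.10) and Tpi1, the triose phosphate isomerase, 0.11 (SE 0.069). Without Cre- replicate 1, the log2 fold change fell to 0.14 for Gpi1 and to 0.083 for Eno1. Of the minor isoforms, Aldoc, the brain aldolase, had 1.05 to 3.34 CPM and a log2 fold change of -0.36 (SE 0.33), which was -0.040 without Cre- replicate 1 and -0.61 without Cre+ replicate 4. Hk3 had 0.34 to 0.90 CPM and -0.088 (SE 0.30).

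**Figure D4:**
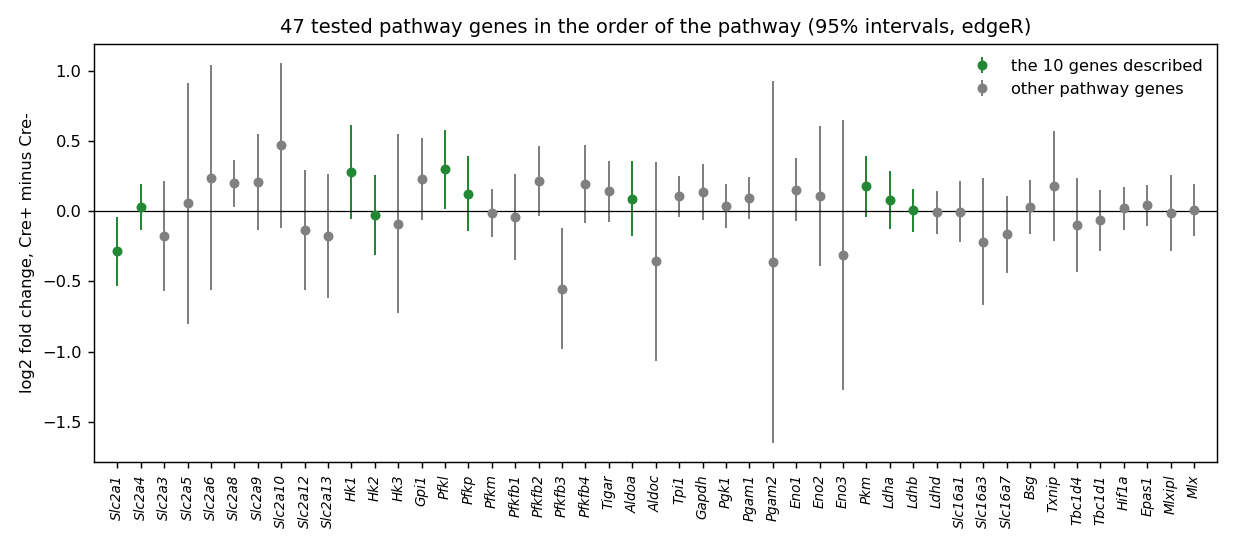
Log2 fold change (Cre+ minus Cre-) of 47 of the pathway genes tested, in the order of the pathway, with 95% intervals from edgeR, the 10 genes described in green and 37 others in grey. The intervals of Slc2a1, Pfkl, Slc2a8 and Pfkfb3 exclude 0 before adjustment, and the widest drawn belong to Pgam2 and Eno3.

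Many of these genes are also expressed in skeletal muscle, which adjoins iBAT, so the muscle transcripts Acta1, skeletal actin, and Ckm, muscle creatine kinase, were read in each library. Acta1 had 1.79, 91.2, 3.39, 0.24 and 0.084 CPM in Cre- and 0.13, 0.19, 1.94, 54.1 and 0.017 CPM in Cre+ mice. Ckm had 0.56, 53.2, 1.47, 0.0086 and 0 CPM in Cre- and 0.036, 0.019, 1.09, 25.6 and 0 CPM in Cre+ mice. Muscle transcripts were thus high in Cre- replicate 2 and Cre+ replicate 4, 1 mouse of each genotype. The 25 muscle markers, of which 21 were tested, summed to 54.2 to 760 CPM in Cre- and 49.5 to 398 CPM in Cre+ mice, with medians of 70.8 and 57.0 CPM, with between 0 and 7 of them at 0 counts in a library, Ckm among these in replicate 5 of either genotype. The muscle enzymes Eno3 and Pgam2, singled out after their values were seen, moved with them: Eno3 had 28.1 and 15.3 CPM in these 2 mice and 7.19 to 9.01 CPM in the other 8, and Pgam2 5.40 and 3.15 CPM against 0.78 to 1.51 CPM. Pfkm, the muscle-type phosphofructokinase, had 127 and 131 CPM in the same 2 mice and 101 to 116 CPM in the other 8. Cre- replicate 2 also had the highest Pfkp, Aldoa and Ldha and Cre+ replicate 4 the highest Hk1 and Pkm of the 10 libraries. Cre+ replicate 5, which had the lowest Acta1 and 0 Ckm counts, in turn had the highest value for 3 genes, Slc2a4, Hk2 and Ldhb. Over all genes tested, the highest value fell in Cre- replicate 2 for 10.4%, in Cre+ replicate 4 for 14.3% and in Cre+ replicate 5 for 10.5%.

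**Figure D5:**
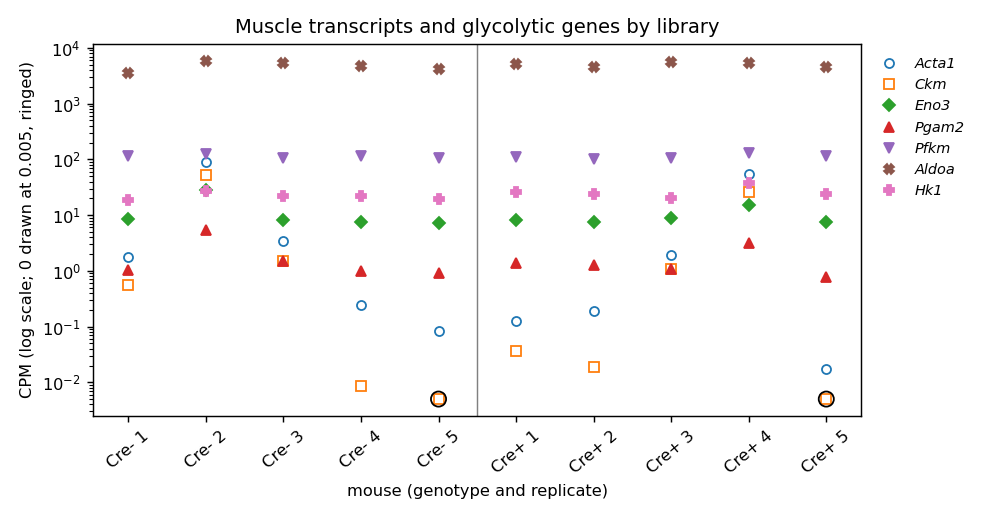
CPM on a log axis of the muscle transcripts Acta1 and Ckm (open symbols) and of Eno3, Pgam2, Pfkm, Aldoa and Hk1 (filled symbols) in each of the 10 libraries, with values of 0 drawn at 0.005 and ringed. Acta1 and Ckm vary over several orders of magnitude with peaks in Cre- replicate 2 and Cre+ replicate 4, where Eno3 and Pgam2 are also highest. Pfkm, which also has its highest values there, and Aldoa hardly vary on this axis.

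Without these 2 libraries, 0 of the 10 genes were called by edgeR, although the number of genes called over all rose from 29 to 289. The log2 fold change was then -0.35 for Slc2a1, 0.38 for Pfkl, 0.20 for Hk1, 0.15 for Aldoa and 0.18 for Pkm, with adjusted p-values by edgeR of 0.203, 0.202, 0.315, 0.611 and 0.392. With the mean log2 CPM of Acta1 and Ckm as a covariate, they were -0.26, 0.33, 0.32, 0.13 and 0.21, and 0 of the 10 genes were called. The covariate was 6.12 in Cre- replicate 2 and 5.22 in Cre+ replicate 4. In the other libraries it ran from -5.28 to 1.17, where Acta1 had at most 3.39 CPM. Much of its spread thus lay among mice with few muscle reads, which limits this adjustment. Before adjustment, 3 of the 10 genes had p under 0.05 by edgeR without the 2 libraries, against 2792 of 17821 genes over all. These were Slc2a1, lower, and Pfkl and Hk1, higher. With the covariate, Pkm was added as higher, which made 4 of the 10 against 2214 of 17690 genes over all. The same 4 genes also passed without Cre- replicate 2 alone, against 2044 of 18046 genes over all.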

How the data were processed

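Per the submitters' processing notes, reads were trimmed (Trimmomatic), aligned to GRCm39 (STAR) and assigned to genes with featureCounts 2.0.1, and the study names GENCODE M28 as annotation. The authors deposited raw counts per gene, in which mates were counted singly, without regard to strand and without multi-mapping reads, so values of overlapping genes are uncertain. Library totals were 91903095 to 132499312. The labels and the study's methods name different RNA isolation kits.

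Genotype, from the labels, was the only term of the model, and libraries of a genotype are separate mice. Counts were fitted in edgeR 4.0.16 (R 4.3.3) after TMM scaling and filterByExpr (minimum count 10, minimum total count 15), with robust dispersions and the quasi-likelihood F test, and p-values were adjusted by Benjamini-Hochberg over 17690 genes (calls under 0.05). SE was obtained as the log2 fold change over the root of F. CPM are TMM-scaled, with a prior count of 2 for log2 CPM. Symbols matched 52081 of 55414 identifiers. Promoter sequences are from RefSeq (GRCm38.p6). Alternatives were DESeq2 1.42.0, voom in limma 3.58.1, other scalings and filters, a replicate block, a muscle covariate and left-out libraries. Tests were checked on simulated counts.

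The 10 genes and the lists were chosen with earlier results of these data known. Named by rule were the 10 genes, RetSat, Acta1 and Ckm, up to 4 genes of each further list with the smallest p, isoforms of the same families that passed the filter, and the 3 genes most like each of the 4 genes with the largest SD. Values of some genes of the lists are not reported here.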

Additional observations from a re-analysis of the deposited data

Results flagged for a closer look

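For 29 genes in 2 genotypes, 58 groups of 5 mice were examined for a mouse far from the others, and 10 stood apart, none of them for the 10 glucose transport and glycolysis genes. Chance flags about 1 in 20 such groups. Muscle transcripts gave 8 of them, in the same pair of libraries, and 4 of these 8 came from Eno3 and Pgam2, which were singled out after their values were seen, so the total cannot be set against that rate. Without these 2 genes, 6 of 54 groups (27 genes) held a mouse that stood apart. In Cre- replicate 2, Acta1 had 91.2 CPM, Ckm 53.2, Eno3 28.1 and Pgam2 5.40 CPM, where the other Cre- mice reached at most 3.39, 1.47, 8.36 and 1.51 CPM. In Cre+ replicate 4, Acta1 had 54.1 CPM, Ckm 25.6, Eno3 15.3 and Pgam2 3.15 CPM, where the other Cre+ mice reached at most 1.94, 1.09, 9.01 and 1.38 CPM. RetSat was highest of the Cre+ mice in replicate 3, with 39.0 CPM against 18.0 to 23.0 CPM in the others. Slc2a10 was lowest in Cre+ replicate 2, with 0.427 CPM against 0.952 to 1.13 CPM in the others.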

How the results depend on the processing

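Over 20 alternatives, 0 of the 10 genes and 0 of the 39 other pathway genes were called, and the lowest adjusted p was 0.146 among the 10 genes and 0.0711 among the other pathway genes named. Over all genes, 29 were called by edgeR, 394 by DESeq2, 148 by limma voom, 92 with no filter on low counts, 18 with the muscle covariate, 289 without Cre- replicate 2 and Cre+ replicate 4, and 9 to 331 without each library in turn, with 331 without Cre+ replicate 4. Of 200 values of the 10 genes under alternatives, 13 changed sign. Without the 3 lettered Cre+ libraries, Ldhb had -0.092, Tpi1 -0.0059 and Slc2a3 0.077. With the muscle covariate, Ckm had 0.080, Pfkm 0.0072 and Pgam2 0.066, and without the 2 libraries high in muscle transcripts Eno3 had 0.056 and Pgam2 0.0090. Leaving out each library in turn gave log2 fold changes of -0.016 to 0.061 for Slc2a4, -0.13 to 0.053 for Hk2, -0.0017 to 0.18 for Aldoa, -0.00081 to 0.13 for Ldha, -0.035 to 0.043 for Ldhb, -5.10 to 3.02 for Acta1, -5.28 to 3.36 for Ckm, -0.071 to 0.032 for Pfkm, -0.30 to 0.15 for Hk3, -0.55 to 0.30 for Eno3 and -0.80 to 0.46 for Pgam2. The cause was not tested. With the replicate number as a block, 23 genes were called and 0 of the 10. The deviations of mice of the same number correlated at -0.20 to 0.22, and 2 of the 5 Cre- mice correlated best with their own number. These few values cannot show whether mice of the same number share more than a number. Family shares do not depend on the library size by construction. At this depth, Hk3, with at most 0.90 CPM, had an SE of 0.30 on the log2 scale.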
